A study of Homo sapiens with 4 samples.

Results

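The 53 genes described here encode proteins that bind RNA and steer its splicing: the SR proteins, the heterogeneous nuclear ribonucleoproteins (hnRNPs), splice-site factors and tissue regulators of splicing. Their own transcripts were followed in RNA that came down with PARP1, an enzyme of the nucleus that adds ADP-ribose chains to proteins. The cells were HK-2, a human line derived from the proximal tubule of the kidney. The series holds 4 samples: 2 PARP1 immunoprecipitations (IP 1 and IP 2), pulled down with a Flag antibody, and 2 inputs, which were not analysed here. No control IP is among the samples, and the labels name no treatment. They do not say how PARP1 was tagged, nor whether each IP had its own culture, so differences between IP 1 and IP 2 may be technical. The members were a fixed list of gene symbols, kept whether or not a list of sites named them, and their sites were found by Ensembl identifier. They took 464 of the 166248 sites of IP 1 and 542 of the 229782 sites of IP 2.

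A site is 1 base on 1 strand at which sequenced tags carry a substitution, a deletion or an insertion. For each site the lists give the tags over it, the mutated tags among them, a region class and a gene. A site can only be listed where tags differ from the reference, so the number of sites is not a measure of expression or of binding strength. Without input values or a control IP, recovery with PARP1 cannot be told apart from abundance in the cell. Counts are therefore set beside the same count over all 19922 protein-coding genes, with no test. Intervals are exact 95% binomial intervals that cover counting error only. Neighbouring sites can rest on the same tags and are not independent.

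SR proteins carry domains rich in arginine and serine and mostly promote the use of nearby exons. The hnRNPs coat nascent transcripts, and several of them repress exons. Many genes of both families control their own level by keeping an intron or including an exon that exposes the transcript to nonsense-mediated decay (NMD), the pathway that destroys messages with early stop codons.

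The windows below show the sites on which the later paragraphs turn, on GRCh38, read 5′ to 3′ on the gene's strand from GENCODE transcripts. The capital marks the listed base. SON and PTBP1 are the members with a base listed in both IPs for which a transcript window of this length exists. The other windows were chosen after their values were seen, from sites with such a window. They lie in coding sequence (HNRNPU, HNRNPD, SRRM2), at exon ends (HNRNPA2B1 site 1, SF3B1) and in introns that an annotated transcript retains (DDX17, TRA2B, HNRNPA2B1 site 2). Of these chosen sites, SF3B1 had 8 tags and the others at least 12.
SON chr21:33553368-33553397 plus strand: gactgtaactgtcctGgagccttcggttgt
PTBP1 chr19:807427-807456 plus strand: tcttaccgtgtgcccGtcgaggtaaacctg
HNRNPU chr1:244863787-244863816 minus strand: accgccggcgacgcaGcagcaacagcccca
HNRNPD chr4:82358698-82358727 minus strand: tttgttggtggccttTctccagatacacct
SRRM2 chr16:2767289-2767318 plus strand: tgaacctggctgactCtcgaacgccagctg
HNRNPA2B1 site 1 chr7:26200558-26200587 minus strand: tgagtccgcgatggaGgtaacgggtttgaa
SF3B1 chr2:197416727-197416756 minus strand: ttgggatcaggcagaGgtaatttctttttg
DDX17 chr22:38490765-38490794 minus strand: tgttttgggccccttTgtttgctgccttgt
TRA2B chr3:185936958-185936987 minus strand: ttttgaggcgttctaAtacttagaaccaca
HNRNPA2B1 site 2 chr7:26199743-26199772 minus strand: ttcctgtctttttttTcctttgagtaacgg

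Most of the splicing factor genes were named in both lists. Of the 53, 47 (88.7%) had a site on either strand in IP 1, against 61.6% of all protein-coding genes, and 45 (84.9%) in IP 2, against 65.7%. Both lists named 44 (83.0%, interval 70.2 to 91.9), against 55.5% of all protein-coding genes. The median span of the members was 28473 bases, close to the 27151.5 bases of all protein-coding genes. Among the 36 members of 10 to 50 kb, 32 (88.9%) were named in both lists, against 56.6% of all genes of that length. The share with no site in either list was 9.43% (5 members), against 28.1%. With only sites of at least 3 tags kept, both lists named 38 members (71.7%), against 22.9% of all protein-coding genes. With only sites whose false discovery rate (FDR) was below the most common value, they named 43 (81.1%), against 34.0%.

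Sense sites, those on the strand of the gene, numbered 423 in IP 1 and 488 in IP 2. The median member held 5 in IP 1 and 7 in IP 2, where the median protein-coding gene held 1 and 2. Per 10 kb of gene span, the median member held 1.98 sense sites in IP 1 and 2.13 in IP 2, against 0.268 and 0.409 for all protein-coding genes. All sites over all span, which gives long genes more weight, put the members at 1.38 and 1.56 per 10 kb against 0.764 and 0.921. IP 2 lists more sites in all, and per 100000 sites of each list the median member held 1.191 in IP 1 and 0.9275 in IP 2, so the order of the IPs depends on this scaling while both stay above the medians of all genes, 0.161 and 0.178. Density was above the median of genes of like span (the same decile of spans) in both IPs for 39 members (73.6%), against 33.2% of all protein-coding genes. Across the 53 members the sense sites of the 2 IPs ranked alike (Spearman rho 0.838), while for density the rho was 0.618, against 0.689 over all protein-coding genes. Longer members had more sense sites (rho 0.595 in IP 1 and 0.682 in IP 2 against span). Members share the 2 libraries, so these rank correlations are descriptions.

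**Figure D1:**
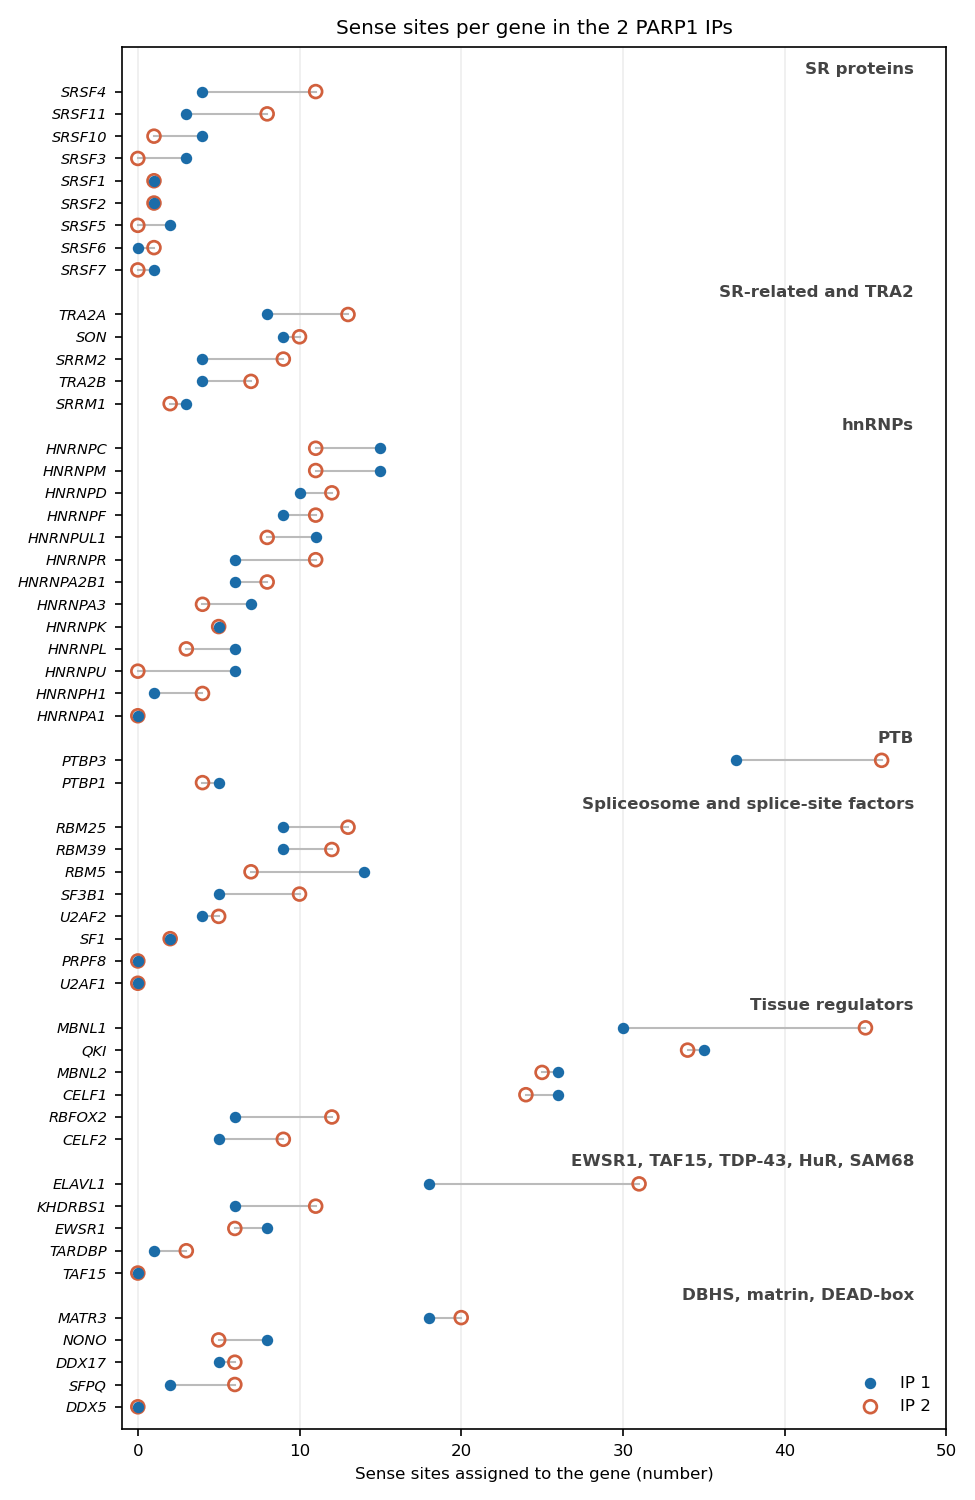
Sense sites assigned to each of the 53 genes (horizontal axis, number of sites) in IP 1 (filled points) and IP 2 (open points), grouped by role and joined by a grey line. PTBP3, MBNL1, QKI, MBNL2, CELF1 and ELAVL1 stand to the right, though most ELAVL1 sites lie outside its span. The SR proteins stay at or below 11 sites, and 5 genes lie at 0 in both IPs.

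**Figure D2:**
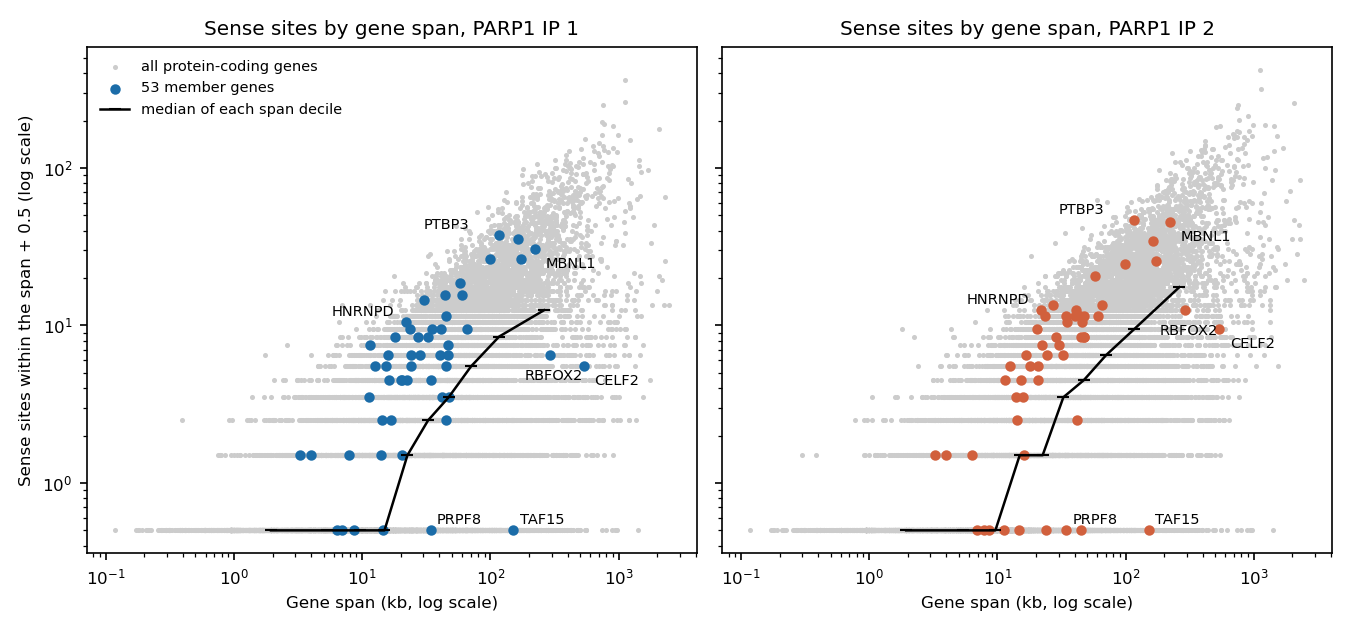
Sense sites within the gene span plus 0.5 (vertical axis, log scale) against gene span in kb (horizontal axis, log scale) in each IP, with all protein-coding genes in grey, the 53 members in colour and the median of each span decile as a black line. Most members lie above the line, while RBFOX2, CELF2, PRPF8 and TAF15 lie below it in both IPs.

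The 9 SR protein genes summed to 19 (IP 1) and 23 (IP 2) sense sites. SRSF4 stood highest with 4 and 11. SRSF11 followed with 3 and 8, then SRSF10, a regulator that is switched by dephosphorylation, with 4 and 1. SRSF1 and SRSF2, the classic exon activators, each had 1 and 1. The others were at the edge of detection: SRSF3 had 3 and 0, SRSF7 1 and 0, and SRSF6 0 and 1, while SRSF5, which spans 45106 bases, had 2 and 0 and lay at the 40.7 and 10.8 percentile of genes of like span. In SRSF2, whose span is only 3260 bases, both sites were in coding sequence, a deletion with 7 tags in IP 1 and a substitution with 10 tags in IP 2. The only exon site of SRSF5 was an insertion with 13 tags in the 3′ untranslated region (UTR) in IP 1. SRSF3 had 2 adjoining deletions with 2 tags each in IP 1, in an exon found only in a retained-intron transcript. For these genes, 0 sites in one list against 1 to 3 in the other is a small difference of counts.

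The SR-related proteins and the TRA2 pair had 28 and 41 sense sites over 5 genes, all named in both IPs. TRA2A, an activator of exons with GAA repeats, had 8 and 13, of which 4 and 1 were in coding sequence. Those 4 were adjoining deletions with 8 tags each and so may be a single event. Its close relative TRA2B had 4 and 7, with none in an exon class in IP 1 and 1 in IP 2. SON, a large scaffold protein of nuclear speckles, had 9 and 10, with 3 and 4 in coding sequence. SRRM2, the other speckle scaffold, had 4 and 9, and its deepest site, the substitution in the window above, had 17 tags with 3 mutated in IP 2. SRRM1, a coactivator that bridges SR proteins, had 3 and 2.

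Of the 13 hnRNP genes, 12 were named in both IPs, with 97 sense sites in IP 1 and 88 in IP 2. HNRNPC, which binds runs of U and guards against the inclusion of Alu exons, and HNRNPM each had 15 and 11. HNRNPD (AUF1), a regulator of mRNA decay, had 10 and 12 within 22006 bases, which is 4.54 and 5.45 per 10 kb. HNRNPF had 9 and 11, HNRNPUL1 11 and 8, and HNRNPR 6 and 11. HNRNPA2B1 had 6 and 8, HNRNPA3 7 and 4, HNRNPK 5 and 5, HNRNPL 6 and 3, and HNRNPH1 1 and 4. HNRNPA3 was the densest member in IP 1 (6.14 per 10 kb) and HNRNPD in IP 2, at the 98.3 and 98.7 percentile of genes of like span.

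HNRNPU, a scaffold protein that binds chromatin and RNA, was given 6 sense sites by IP 1 and 0 by IP 2. Its coding sequence held the deepest site of the set, a substitution with 58 tags of which 4 were mutated. On its strand and within its span lay 11 sites in IP 1 and 4 in IP 2. Of these, 5 and 4 were assigned to 2 other identifiers that are not in GENCODE release 29, so the 0 in IP 2 holds for the list's own naming alone. Among the 37 members with 6 or more sense sites, HNRNPU was the only one whose interval for the share of sites in IP 2 left out the 54.7% of all protein-coding genes (1 of 37, 2.7%, against 7.66% of all genes with as many sites).

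The polypyrimidine tract binding genes differed widely in sites. PTBP3, the paralog first described in blood cells, held 37 and 46 sense sites, the most of any member in both IPs. It spans 115952 bases of chromosome 9 (112217716 to 112333667, minus strand), which makes 3.19 and 3.97 per 10 kb, the 97.9 and 98.8 percentile of genes of like span. PTBP1, the general repressor of exons, had 5 and 4 within 15253 bases, or 3.28 and 2.62 per 10 kb. Per length the pair are therefore close, and the gap in their counts goes with span. PTBP3 sites were spread over the introns, with 11 and 19 in intron 2 and 9 and 6 in intron 3 (10 and 12, and 4 and 6, with adjoining sites of a kind counted once), and 7 of its sites were in exon classes.

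The spliceosome and splice-site factors had 43 and 49 sense sites over 8 genes, 6 of them named in both IPs. RBM25 had 9 and 13, RBM39 9 and 12, RBM5 14 and 7, and SF3B1, the U2 subunit that contacts the branch point, 5 and 10. U2AF2, which binds the polypyrimidine tract, had 4 and 5 sense sites and 10 antisense sites, and SF1, the branch point protein, had 2 and 2. RBM39 changed place between the lists: 6 of its 9 sites in IP 1 were in the 3′ UTR and 1 in the 5′ UTR, whereas 1 of its 12 sites in IP 2 was in an exon class. Of those 6, 4 were adjoining deletions with 10 tags each, and the other 2 were an adjoining pair of deletions with 6 tags each. RBM25 had 4 sites in intron 6 in IP 1 and 7 in intron 18 in IP 2, but the 4 were 1 run of adjoining deletions and 6 of the 7 were another.

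The tissue regulators, named for their roles in muscle, nerve and epithelium, had 128 and 149 sense sites over 6 long genes. MBNL1 had 30 and 45 and MBNL2 26 and 25. QKI, a STAR-family protein that also regulates RNA circles, had 35 and 34, and CELF1 26 and 24. RBFOX2, a regulator of epithelial splicing programmes, had 6 and 12 sites over 289690 bases, and CELF2 5 and 9 over 538279. These last 2 are the longest members and the sparsest of those with sense sites in both IPs, at 0.207 and 0.414 per 10 kb for RBFOX2 and 0.0929 and 0.167 for CELF2. Their percentiles, 39.9 and 44.4 for RBFOX2 and 26.5 and 25.3 for CELF2, were below the middle of genes of like span, while those of the other 4 were between 77.6 and 95.3.

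Sites were not evenly placed along these long genes. All 18 RBFOX2 sites (6 and 12) lay in the first intron of the principal transcript, which holds 31.6% of its intron bases, between 6.91 and 69.9 kb from the start of a 284 kb transcript. In QKI, 24 sites of IP 1 and 12 of IP 2 were in intron 3, which has 36.3% of the intron bases. Of these, 10 in IP 1 and 6 in IP 2 were a single run of adjoining deletions, and with adjoining sites counted once there were 13 and 7. The first 56 kb of QKI had no site in IP 1, while IP 2 had 6 sites in its first intron. MBNL1 held 21 and 33 sites in intron 2, or 75.0% of its intronic sites in 59.9% of its intron bases. MBNL2 held 16 sites of IP 1 and 8 of IP 2 in intron 2, and 6 and 10 in intron 1. CELF1 and CELF2 had most of their sites upstream of the principal transcript, along longer annotated transcripts, where the median CELF1 site had a position of -32.3 kb in IP 1 and -33.8 kb in IP 2 relative to its start.

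**Figure D3:**
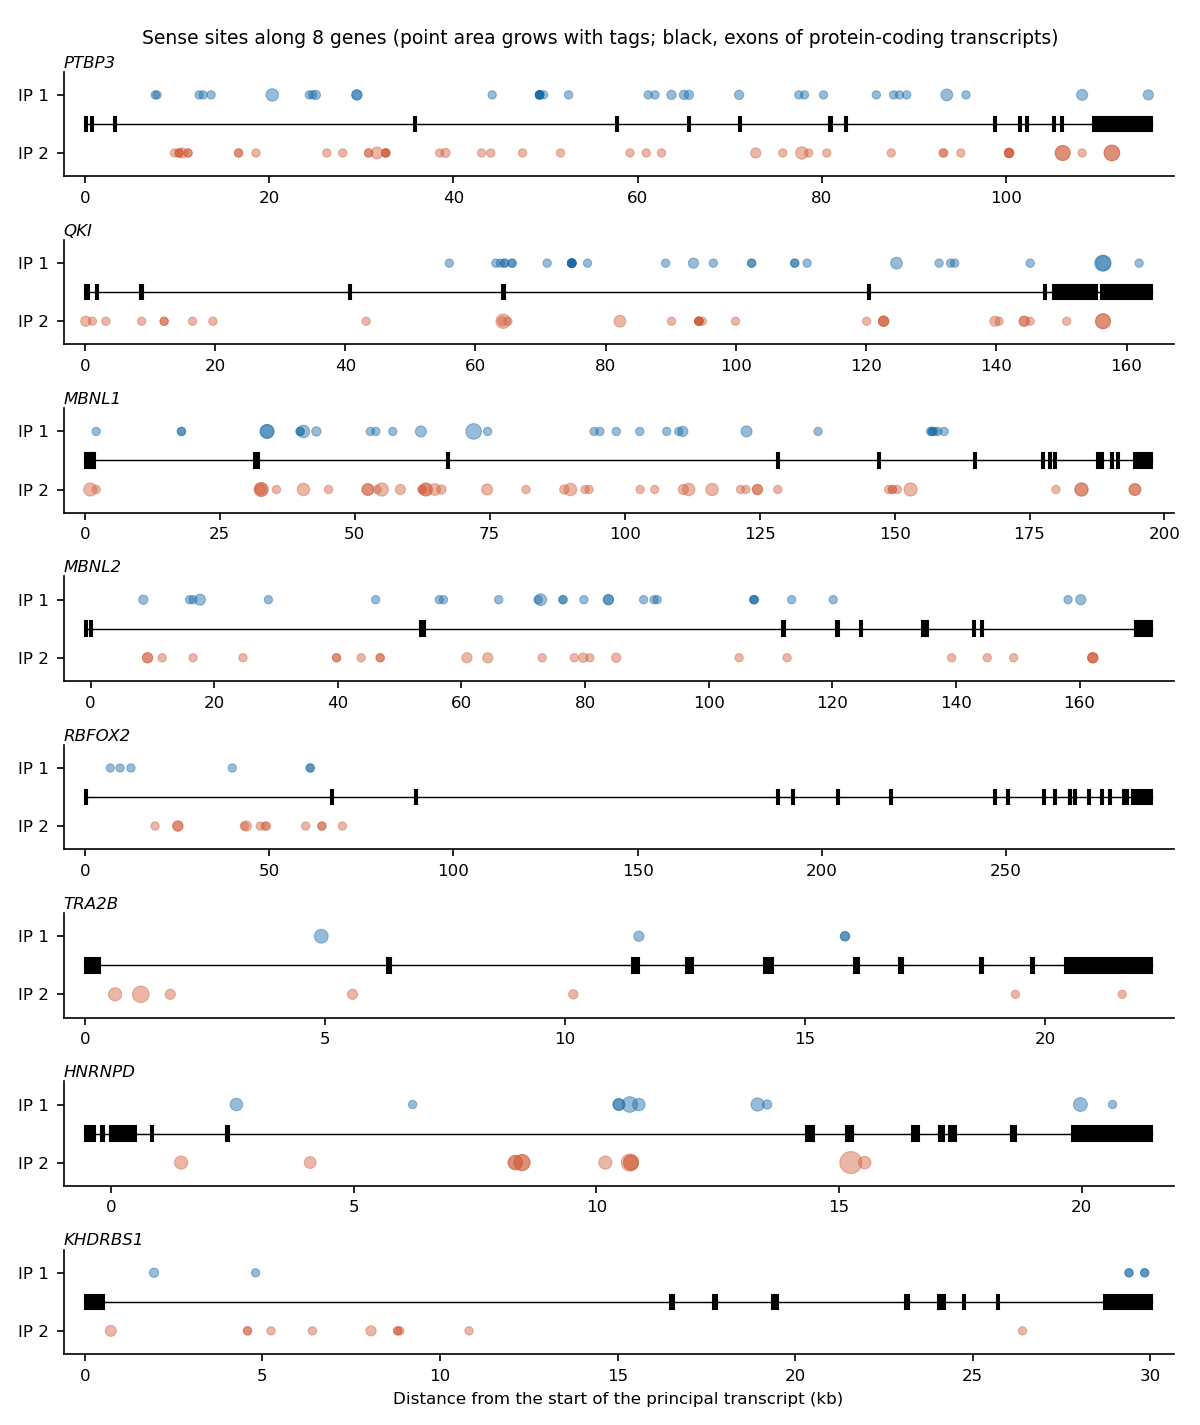
Sense sites along 8 genes by distance in kb from the start of the principal transcript, with IP 1 above and IP 2 below the gene line, point area growing with tags, and exons of protein-coding transcripts in black. RBFOX2 sites end at 69.9 kb, QKI has none before 56 kb in IP 1, and HNRNPD sites gather in intron 2.

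The group of EWSR1, TAF15, TDP-43, HuR (ELAVL1) and SAM68 was assigned 33 and 51 sense sites. Of these, 11 and 23 were ELAVL1 sites outside the span of that gene. KHDRBS1 (SAM68) had 6 and 11 sense sites. They sat in different places: in IP 1, 4 of the 6 were in the 3′ UTR, whereas in IP 2, 10 of the 11 were in the first intron, with none in an exon class. The 4 were 2 pairs of adjoining deletions. EWSR1, an RNA-binding protein of the nucleus, had 8 and 6, and TARDBP (TDP-43), which controls its own level through its 3′ UTR, had 1 and 3. The remaining 5 genes had 33 and 37. MATR3, a nuclear matrix protein, had 18 and 20, with 8 and 12 in intron 4, while NONO and SFPQ, proteins of the paraspeckle, had 8 and 5 and 2 and 6. The RNA helicase DDX17 had 5 and 6.

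ELAVL1 (HuR), which stabilises AU-rich messages, was assigned 18 and 31 sense sites, but most do not lie in the gene. Of its 66 sites on either strand, 51 were outside its 47081-base span, up to 416 kb away and beyond 10 other protein-coding genes, and 49 of the 51 had 2 tags. Within the span there were 7 and 8 sense sites, 1.49 and 1.70 per 10 kb. Over all genes of the annotation, 0.419% of assigned sites were outside the span.

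No site was assigned to HNRNPA1, U2AF1, PRPF8, TAF15 or DDX5 in either IP. PRPF8, the core protein of the spliceosome, spans 34254 bases and lay in a stretch of 212402 bases without any listed site, the nearest being 85100 bases away. U2AF1, which reads the 3′ splice site, lay in a site-free stretch of 113275 bases. It has a near-identical copy, U2AF1L5, and the lists do not say how tags that fit both were placed. DDX5, an RNA helicase, had its nearest site 696 bases away and HNRNPA1 169 bases away, and both genes are under 10 kb. HNRNPA1, a repressor of exons, has many processed pseudogenes, and 1 site of IP 2 in its span was assigned to another gene. The annotated TAF15 span of 150825 bases held 13 sites, 9 named AP2B1 and 4 named RASL10B, and none lay after the start of its 37.8 kb principal transcript.

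Exons held a larger share of the members' sites than of all protein-coding genes' sites in IP 1, whereas the interval in IP 2 held the overall value. Exon classes took 15.1% of member sense sites in IP 1 (interval 11.9 to 18.9) against 9.36% of all, and 11.3% in IP 2 (8.6 to 14.4) against 8.77%. Exons also take more of the members' length. By GENCODE, exons of protein-coding transcripts held 18.0% and 13.3% of member sites on 9.62% of the bases, and 10.5% and 9.8% of the sites of all protein-coding genes on 6.08%. Exon sites were found in either IP for 37 members (69.8%), against 38.1% of protein-coding genes, and in both for 18 (34.0%), against 14.6%. Coding sequence had a site in 18 members (34.0%, against 22.1%), the 3′ UTR in 25 (47.2%, against 23.3%) and the 5′ UTR in 10 (18.9%, against 5.01%). The 5′ UTR count includes DDX17, whose 3 sites of that class in IP 2 lie in a 3′ UTR by GENCODE. Antisense sites were found for 28 members (52.8%, against 44.5%). As a share of all sites they were lower in the members, 8.84% in IP 1 and 9.96% in IP 2, against 11.1% and 15.2%. The members with the most exon sites over both IPs were QKI (3 and 6), RBM39 (7 and 1), HNRNPA3 (5 and 2), PTBP3 (3 and 4), SON (3 and 4), SRRM2 (2 and 4), HNRNPF (2 and 3), TRA2A (4 and 1), CELF1 (1 and 4) and SF3B1 (1 and 4).

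The members also carried deeper sites and more small deletions. Sites with 10 or more tags were 5.91% of member sense sites in IP 1 and 8.4% in IP 2, against 1.49% and 1.58% of all. In exons they were 21.9% and 38.2%, against 8.57% and 8.62%. A site this deep was found in either IP for 26 members (49.1%), against 6.5% of protein-coding genes, and in both for 8 (15.1%), against 1.58%. Deletions made 40.9% and 38.9% of the members' sense sites, against 25.7% and 26.5%, and insertions 10.4% and 12.1%, against 6.43% and 6.35%. Substitutions made up the rest, 48.7% and 49.0%, against 67.9% and 67.1%. A deletion is often listed at several adjoining bases. With each run of adjoining deletions counted once, 58 of 173 member deletions in IP 1 and 63 of 190 in IP 2 would drop out. The shares of deep sites, for the members and for all protein-coding genes, count every base of such runs.

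**Figure D4:**
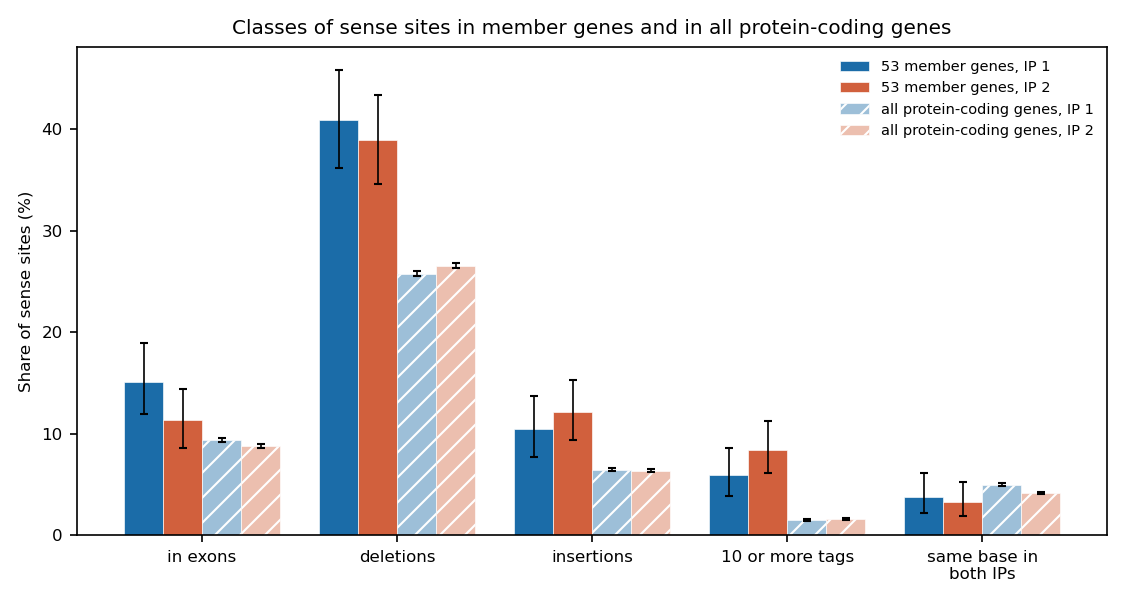
Share of sense sites (vertical axis, %) that lie in exons, are deletions, are insertions, have 10 or more tags or recur at the same base in both IPs, for the 53 genes (solid bars) and all protein-coding genes (hatched), with exact 95% intervals. Deletions, insertions and deep sites are higher in the 53 genes in both IPs, and the share at the same base is not.

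The deep sites fell on named places. HNRNPD held a coding deletion with 26 tags, 4 mutated, at the last T of a run of 3 in the window above, and QKI held 3′ UTR deletions with 13 and 11 tags in IP 1 and 11 tags in IP 2. These QKI sites lie within 100 bases of each other in both IPs without sharing a base. SFPQ had 13 tags over a 5′ UTR deletion in IP 1 and 14 over a coding insertion in IP 2. DDX17, HNRNPA2B1, HNRNPF, RBM39 and SON also had a site of 10 or more tags in each IP. Away from the HNRNPA2B1 and HNRNPU sites, tag numbers stayed at or below 26.

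Insertions crowded beside splice junctions. Within 5 bases of a splice junction of a protein-coding transcript lay 11 of 44 member insertions in IP 1 (25.0%, interval 13.2 to 40.3) and 11 of 58 in IP 2 (19.0%, 9.87 to 31.4). Such bases are 0.506% of the members' span. At 3′ splice sites, 3 (IP 1) and 1 (IP 2) of these insertions were on the exon side and 1 and 0 on the intron side. At 5′ splice sites, 3 and 7 were on the exon side and 4 and 3 on the intron side. For substitutions the shares were 1.03% and 3.67% (interval in IP 2, 1.6 to 7.1), against 0.427% and 0.436% over all protein-coding genes. For deletions they were 0.578% and 0.0%, against 0.45% and 0.272%. Insertions stood out from the other types over all protein-coding genes as well, with 12.8% and 12.5% beside junctions on 0.314% of the span. That contrast of insertions with other types is therefore not particular to these genes. The deepest was in HNRNPA2B1, whose insertion at the last base of a coding exon had 38 tags, 4 mutated, in IP 2. Its window above reads G, then the intron's gtaacg. SF3B1 shows the same arrangement with 8 tags, G before gtaatt, and SFPQ has 14 tags at the last base of an exon. How the aligner placed tags that cross these junctions was not tested.

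**Figure D5:**
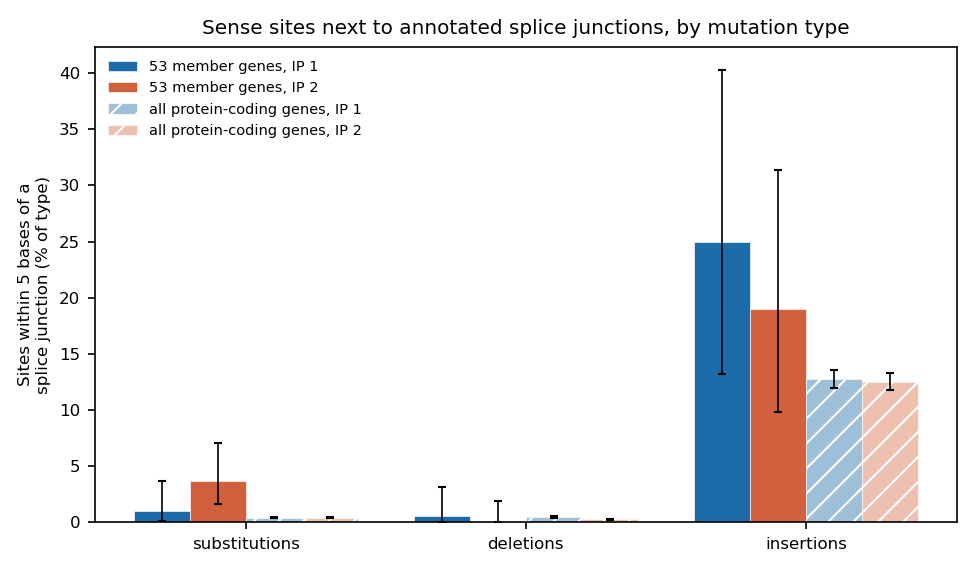
Share of substitutions, deletions and insertions (vertical axis, %) that lie within 5 bases of an annotated splice junction, for the 53 genes (solid) and all protein-coding genes (hatched) in each IP, with exact 95% intervals. Insertions reach 25.0% and 19.0% in the 53 genes, and substitutions and deletions stay at or below 3.67%.

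Runs of a single base went with insertions too. Among exonic and retained-intron sites with a transcript window, 8 of 12 member insertions in IP 1 and 8 of 11 in IP 2 were in or next to a run of 4 or more equal bases, against 60.3% and 61.4% for all protein-coding genes. The second HNRNPA2B1 window is an example, with 12 tags at the end of 8 T. For member deletions the shares were 31.0% and 28.8%, against 28.3% and 27.0% for all protein-coding genes. Of the bases of the members' principal transcripts, 13.6% lie in or next to such runs, against 12.6% for all protein-coding genes.

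Annotated retained introns of the members also carried sites. Exons found only in transcripts annotated as NMD targets or retained introns held 19 of the 338 intronic sites of the members in IP 1 (5.62%) and 22 of 403 in IP 2 (5.46%). Such exons make up 4.75% of the members' intronic bases, so the sites were about as frequent there as their length gives. They make up 1.18% of intronic bases in all protein-coding genes, which had 2.06% and 1.83% of sites there. The 41 sites fell in 22 members, of which 6 had them in both IPs. Those sites were deep more often than sites in the rest of the introns: 3 of 19 and 7 of 22 had 10 or more tags, against 2.51% and 3.41% of the other intronic member sites, with wide intervals (3.38 to 39.6 and 13.9 to 54.9). An adjoining pair of deletions is among them in each IP (DDX17 and RBM25), and counted once they are 2 and 6. All protein-coding genes showed a contrast of the same direction, 2.0% against 0.707% in IP 1 and 2.09% against 0.839% in IP 2.

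TRA2B had 2 sites in such exons in IP 1 and 3 in IP 2, the deepest being the deletion with 14 tags in intron 1 shown above. DDX17 had 2 in each IP, with 13 and 14 tags in intron 11. HNRNPA2B1, HNRNPL and EWSR1 also had 2 in each IP. U2AF2 had a substitution in intron 3 with 8 tags, all 8 mutated, in IP 1 alone. RBM39 had a deletion with 11 tags in intron 2 and HNRNPH1 one with 11 tags in intron 4, both in IP 2. Over all intronic member sites, 16.3% and 18.4% lay within 300 bases of a coding-transcript exon, against 11.8% of the bases, and over all protein-coding genes it was 9.64% and 9.48% against 8.4%. The first intron held 16.9% and 20.4% of intronic sites against 22.0% of the bases, whereas over all protein-coding genes it held 27.2% and 26.9% against 24.6%.

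Sites at the same base and strand in both IPs numbered 16, in 14 members (26.4%, interval 15.3 to 40.3), against 14.9% of protein-coding genes. Among members of 10 to 50 kb it was 7 of 36 (19.4%), against 11.1%. As a share of sites, 3.78% of member sites of IP 1 and 3.28% of IP 2 recurred, against 4.96% and 4.11% over all protein-coding genes.

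The shared sites with at least 4 mutated tags in each IP were substitutions in the first introns of HNRNPK and SRSF4. In HNRNPK, which binds C-rich RNA, 4 of 4 tags were mutated in IP 1 and 5 of 6 in IP 2, at 270 bases from the nearest exon. In SRSF4 it was 4 of 4 in both IPs, at 7709 bases from an exon. HNRNPD had the deepest shared site, in intron 2, with 3 of 12 and 5 of 15 tags mutated. MBNL1 had 3 of 7 and 5 of 7 in intron 2, and a site with 2 of 2 in both IPs in intron 1. The only shared coding base was in SON, with 3 of 5 and 5 of 10 tags mutated at the window above. PTBP1 had 2 of 2 and 6 of 6 at its retained-intron window in intron 9. Whether tags of the inputs also differ from the reference at the shared bases was not tested, so recurrence does not tie them to PARP1.

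Insertions were shared by 3 members. SRSF10 had 3 of 3 and 4 of 4 tags mutated in intron 3, SRRM2 2 of 7 and 3 of 5 at the last base of a 5′ UTR exon, and PTBP3 2 of 5 and 2 of 2 in intron 13. CELF1 had 2 shared sites, a substitution with 2 of 2 and 4 of 4 tags and a deletion with 2 of 2 and 2 of 3. MATR3, MBNL2, QKI and RBM25 each had a shared intronic substitution with 2 of 2 tags in both IPs, which is the least the lists hold.

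A list of 56 other splicing and RNA-binding genes, among them the SR kinases and further spliceosome subunits, had 45 genes named in both IPs and median densities of 2.004 and 1.664 sense sites per 10 kb. Of its genes, 8 had a shared base. The median percentiles of this list among genes of like span were 82.1 in IP 1 and 74.5 in IP 2. Those of the 53 members were 82.7 and 82.5. Exon classes held 64 of the 457 sense sites of this list in IP 1 and 46 of 438 in IP 2. For the members it was 64 of 423 and 55 of 488. Chosen after their values were seen, HNRNPAB had 12.02 and 15.02 sense sites per 10 kb, and PCBP1, which spans 1750 bases, had 34.29 in IP 1 and 0 in IP 2. A list of 17 splicing genes best known from nerve and muscle, such as RBFOX1, ELAVL2 and NOVA1, had 12 of the 17 named in both IPs. The share over all protein-coding genes was 55.5%. Its median densities were 0.132 and 0.128 per 10 kb, with a median span of 136234 bases. Its median percentiles among genes of like span were 29.9 and 23.4. Only PTBP2 (84.2 and 88.7) and RBM20 (84.1 and 70.7) lay above the middle in both IPs. Exon classes took 1.04% and 4.0% of the sense sites of this list. Markers of tubule epithelial lines were named in both IPs for 8 of 11, against the same 55.5%. They had median densities of 1.325 in both IPs and median percentiles of 80.8 and 74.4. Exon classes took 8.86% and 4.82% of their sense sites.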

How the data were processed

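RNA from 2 PARP1 IPs of HK-2 cells was sequenced, and 1 list of sites per IP was used. The inputs were not analysed here. Per the file headers, the deposited values at a site are whole-number counts of tags and of mutated tags, with an FDR that the authors computed. The tools named are bcl2fastq and TopHat2 with build GRCh38, per the submitters' processing notes. The site caller and its settings, strand handling and duplicate removal were not given in the sources used here. Amplified tags without molecular identifiers are not independent molecules. The tags over all listed sites sum to 419675 in IP 1 and 572870 in IP 2, which is not the library depth, and 1547 and 1943 of them are over member sense sites.

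Sites were joined by Ensembl identifier to GENCODE release 29 with pandas 2.3.3. All 53 members matched, by 54 identifiers, as MATR3 has 2. Density counted sense sites within the span, and percentiles were taken among genes of the same span decile. The principal transcript is the protein-coding one with the best APPRIS level, then the longest. Exact intervals came from scipy 1.17.1, and counting was checked on simulated sites. No test between groups was possible without input or control IP values. The members and lists were chosen with earlier results of these data known, and the junction and run counts were added after the data were seen. All members are named. Fuller accounts went to the 12 with the most sense sites, the 10 with the most shared bases, the 8 with the most exon sites and those with no site in an IP. Alternatives were stricter FDR or tag limits, other classes, scaling and matching, and leaving out each IP.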

Additional observations from a re-analysis of the deposited data

How the results depend on the processing

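Of 35 values recomputed under other settings, 18 stayed within the limit set for their kind of value and 17 moved further. This tally does not measure robustness. Scaled densities have another unit, and stricter limits can only lower densities and shared bases. Leaving out an IP counts members named in the other alone. Exon shares were judged by their exact interval, and densities by the spread between the IPs. Counts of members and of shared bases were judged by a fixed ratio to the value as deposited, which is not a measure of spread. Keeping sites whose FDR was under the most common value left 9 shared bases in 9 members. It put the exon share at 21.67% and 15.9% in IP 1 and IP 2 and the median density at 1.209 and 1.337 per 10 kb. Keeping only sites with at least 3 tags left 7 shared bases in 7 members, with exon shares of 30.67% and 19.91% and densities of 0.7052 and 0.8775. The exon shares of all protein-coding genes rose too, to 19.6% and 17.8% with at least 3 tags. Counting exon sites alone, 18 members were named in both IPs. Scaled to 100000 sites of each list, the median densities were 1.191 and 0.9275, so the order of the IPs turned. Merging sites within 100 bases, added after the data were seen, gave 1.41 and 1.689. Leaving out each IP in turn gave 45 to 47 members named, and shared bases cannot be counted with 1 IP. No paired analysis was possible because the inputs that carry the same numbers as the IPs were not analysed here. Low depth limits the rest: 64.5% and 56.8% of member sense sites had 2 tags, both mutated.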
